A study of Mus musculus with 6 samples.

Results

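The classical cadherins and the protocadherins, the calcium-dependent adhesion molecules that neurons use most widely to tell one another apart, were examined in whole brains of mice with and without an activated human SRY transgene. All probes whose gene symbol began with Pcdh, or was Cdh followed by a number, were taken from the deposited brain table, leaving out Cdh5, the vascular cadherin. This gave 78 gene symbols measured by 97 probes, of 18138 symbols and 25697 probes on the array. A probe was tested when its detection p-value, which says how often a negative-control bead is as bright as the probe, was under 0.05 on at least 3 of the 6 arrays. Of the 97 probes, 50 were tested, and they covered 41 of the 78 symbols. The clustered protocadherins supplied 24 tested probes of 50, the non-clustered protocadherins 11 of 17 and the cadherins 15 of 30.

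The arrays compared 3 hSRY-OFF with 3 hSRY-ON male mice of the FVB strain (FVB/N in the methods) at postnatal day 6. Both groups carried the Signalox-hSRY transgene as a single copy at the H11 locus of chromosome 11, in 1 responder line. In hSRY-OFF mice the transgene was not recombined, so that the ubiquitous CAG promoter drove the red fluorescent protein DsRed2 between loxP sites. In hSRY-ON mice Cre supplied by the oocyte of a Ddx4-Cre mother had removed that cassette, and the promoter drove FLAG-tagged human SRY together with EGFP. The hSRY-ON mice chosen for the arrays did not themselves carry Ddx4-Cre. The activation was therefore not restricted to neurons, and the 2 groups differed in DsRed2 and EGFP as well as in SRY. The array held no probe for the transgene.

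Classical cadherins bind the same cadherin on the facing cell and are anchored to actin through beta- and alpha-catenin. In the brain their combinations help to separate nuclei and layers and to match synaptic partners. Clustered protocadherins are made from alpha, beta and gamma gene arrays in which each neuron chooses a few promoters, and this gives single neurons a surface identity used in self-avoidance of dendrites. The non-clustered delta-protocadherins are expressed in restricted regions and act in axon growth, cell sorting and synapse remodelling. SRY is a transcription factor of the SOX family that binds DNA through an HMG box.

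The 3 highest log2 fold changes of all tested member probes belonged to 2 non-clustered protocadherins, Pcdh10 (0.81 and 0.56) and Pcdh7 (0.72). The Pcdh7 probe was called and the Pcdh10 probes were not. The RefSeq promoter windows of both genes are shown because their probes lead that order. Each is written 5′ to 3′ on the plus strand of GRCm38.p6, with 250 bases before an annotated transcript start in lower case and the 50 bases from that start on in capitals. The Pcdh10 window lies at chr3:45378148-45378447 and the Pcdh7 window at chr5:57717831-57718130.
Pcdh10: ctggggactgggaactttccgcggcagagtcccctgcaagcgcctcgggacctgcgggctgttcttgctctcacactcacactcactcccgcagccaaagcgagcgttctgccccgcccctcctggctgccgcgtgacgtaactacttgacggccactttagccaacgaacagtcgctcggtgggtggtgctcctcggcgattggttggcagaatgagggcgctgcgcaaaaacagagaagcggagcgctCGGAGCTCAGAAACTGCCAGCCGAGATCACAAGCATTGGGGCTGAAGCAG
Pcdh7: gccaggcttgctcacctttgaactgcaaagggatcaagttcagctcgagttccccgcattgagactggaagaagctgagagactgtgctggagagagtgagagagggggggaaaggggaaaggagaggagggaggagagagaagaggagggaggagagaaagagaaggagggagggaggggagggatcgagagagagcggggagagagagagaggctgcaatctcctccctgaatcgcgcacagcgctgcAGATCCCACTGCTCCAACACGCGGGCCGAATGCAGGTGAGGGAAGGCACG
The Pcdh10 window ends 50 bases into the annotated gene, which begins at position 45378398, whereas the Pcdh7 window surrounds a start inside the annotated gene, which runs from 57716145 to 58133236. GC content was 62.3% for Pcdh10 and 59.3% for Pcdh7. The letters AACAAT, the core that SRY and related SOX proteins recognise, were searched on both strands and occurred in neither window. They occurred in 3521 of the 32851 mouse promoter windows of this length (10.7%). Among the 22 windows counted for 19 member genes they occurred in none. That member count held no window of Pcdh1, Cdh2 or any clustered protocadherin, the called Pcdhga4 and Pcdhgb2 included. It therefore leaves their promoters undescribed, and it says only that these letters were not in the 22 windows.

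Between 13816 and 14377 probes were detected on each array, and normalized values correlated at 0.9908 to 0.9940 within the groups and at 0.9862 to 0.9897 between them. The tissue label was borne out by the neuronal markers with a tested probe, Stmn2, Syt1, Eno2 and Tubb3, which were above background in both groups. The log2 signal of Stmn2 was 15.02 ± 0.08 in the hSRY-OFF and 15.10 ± 0.07 in the hSRY-ON brains (SD, n = 3). The probe for Snap25 was not tested because it was detected on too few arrays. Values below are log2 signals after background correction and quantile normalization, changes are hSRY-ON minus hSRY-OFF, and adjusted p-values are from limma over all 14215 tested probes. The replicates are biological according to the methods, and the p-values measure the spread between these 6 samples only. In whole tissue, fewer cells of a type and less RNA per cell cannot be told apart.

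An adjusted p of 0.05 was passed by 3 protocadherin probes, those of Pcdh7 and Pcdhga4, which were higher in hSRY-ON, and that of Pcdhgb2, which was lower. Pcdhgb2 was detected on no hSRY-ON array and entered the test only through hSRY-OFF, so part of its difference was built into its selection. With it, the calls were 3 of the 50 member probes, beside 2.17% of all tested probes. By direction, 2 member probes were called higher, beside 0.844% of all probes, and 1 lower, beside 1.32%. The 3 values of one group lay wholly outside those of the other for 14 of the 50 member probes (28.0%), against 27.7% of all probes, a share close to the background. Of these 14, 12 lay above and 2 below, whereas among all probes 13.5% lay above and 14.2% below. The 14 include Pcdhga7 and Pcdhgb2, each detected in 1 group only and tested through it. Among the 48 member probes detected in both groups 12 lay apart (11 above and 1 below), beside 27.4% of all probes detected in both groups, and 2 were called, both higher, beside 290 of those 14144 probes. An unadjusted p under 0.05 was found for 14 member probes and for 20.9% of all probes. The log2 fold change was above 0 for 35 member probes and below 0 for 15 (70.0% above), beside 51.1% of all probes, and its median was 0.13 over the members and 0.00 over all probes. These shares are descriptions, since probes of 1 brain are not independent samples.

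**Figure D1:**
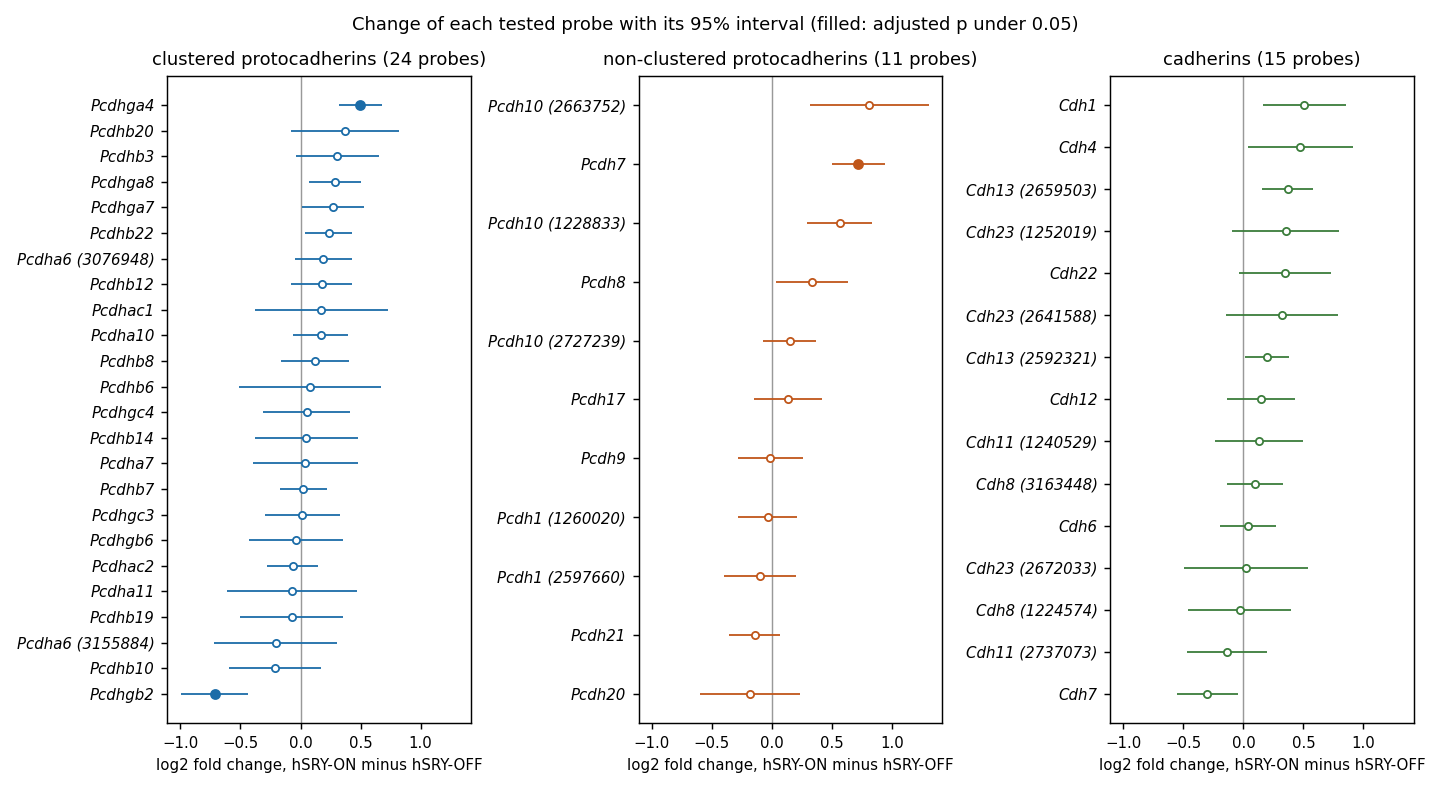
Each row is 1 tested probe, placed by its log2 fold change (hSRY-ON minus hSRY-OFF, horizontal axis) with its 95% interval from limma, in 3 panels for clustered protocadherins, non-clustered protocadherins and cadherins. Filled points passed an adjusted p of 0.05. Pcdh7 and Pcdhga4 stood above 0 and Pcdhgb2 below it, while most intervals crossed 0. Digits in brackets are the array's probe numbers where a gene had several tested probes.

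Among the non-clustered protocadherins, Pcdh7 was the called gene and a Pcdh10 probe had the largest difference. Pcdh7 is a delta-1 protocadherin on chromosome 5. Its probe read 6.25, 6.35 and 6.35 in hSRY-OFF and 7.07, 6.90 and 7.15 in hSRY-ON. Every hSRY-ON array was brighter than every hSRY-OFF array, and the gap between groups was several times the spread within them. The means were 6.32 ± 0.06 and 7.04 ± 0.13 (SD, n = 3), a log2 fold change of 0.72 with a 95% interval of 0.50 to 0.94 (SE 0.09, adjusted p = 0.0263 by limma) and a 1.65-fold higher signal. This probe was called in the fits without hSRY-ON array 3 (adjusted p = 0.0320), but not without hSRY-OFF array 1 (0.0922), 2 (0.109) or 3 (0.0896), or without hSRY-ON array 1 (0.0847) or 2 (0.0614). The log2 fold change in these 6 fits ran from 0.66 to 0.79, but its size depended on the background correction. It was 0.29 without background correction (adjusted p = 0.0116) and 0.45 with normexp on the signals, offset 50 (0.0106). The 2 other Pcdh7 probes on the array were detected on no array and were not tested.

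Pcdh10, a delta-2 protocadherin that recruits the WAVE actin-regulating complex and acts in axon growth, lies on chromosome 3 and was measured by 3 probes. The first read 8.97, 9.002 and 9.15 in hSRY-OFF and 9.77, 9.41 and 9.63 in hSRY-ON. The second read 7.62, 7.19 and 6.93 against 8.33, 7.76 and 8.08. In both, each hSRY-ON array lay above each hSRY-OFF array. Their log2 fold changes were 0.56 (SE 0.11, adjusted p = 0.0557) and 0.81 (SE 0.21, adjusted p = 0.0916), so neither was called. The third probe read 10.05, 9.98 and 10.13 against 10.28, 10.27 and 10.06, with overlapping groups and a change of 0.15 on the log2 scale (SE 0.09, adjusted p = 0.410). The 3 probes of this gene therefore had the same sign but sizes from 0.15 to 0.81, and the position of each probe in the transcript was not known here. The first probe was called when dim probes were held to a detection p under 0.01 on all arrays (adjusted p = 0.0265). Both were called without background correction (0.00279 and 0.00881), where each change was 0.46. They were also called with normexp on the signals, offset 50 (0.0151 and 0.0294), and with a trended and robust prior (0.00130 and 0.00443). Calls over all tested probes rose too, from 308 of 14215 to 705 of 11619, and to 1317, 860 and 1447 of 14215, in that order. Neither probe was called with median scaling, cyclic loess, array weights, the replicate number as a block or any 1 array left out.

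The remaining non-clustered protocadherins moved less. Pcdh8, a delta-2 protocadherin that takes N-cadherin off the synaptic surface, read 7.15, 7.40 and 7.13 in hSRY-OFF and 7.75, 7.59 and 7.36 in hSRY-ON. The lowest hSRY-ON array fell just under the highest hSRY-OFF array, and the log2 fold change of 0.34 (SE 0.13) was not called (adjusted p = 0.198). Pcdh17, which acts in presynaptic assembly of corticobasal ganglia circuits, stood at 10.75 ± 0.14 and 10.89 ± 0.18 with a change of 0.14. All 5 tested delta-2 probes had log2 fold changes above 0, beside 51.1% of all probes, and 3 had an unadjusted p under 0.05, beside 20.9%. Pcdh10 supplied 3 of the 5 and 2 of the 3, so these counts rest largely on 1 gene. The other delta-1 genes had values near 0, at -0.01 for Pcdh9 and at -0.04 and -0.10 for the 2 probes of Pcdh1. Pcdh20 differed by -0.18 (SE 0.18) with hSRY-ON array 3 lowest. The gene named Pcdh21 on the array, now Cdhr1, a photoreceptor and olfactory-bulb cadherin, differed by -0.14 (SE 0.09). Over the 11 tested probes of this class, 3 lay wholly above and none below, beside 13.5% of all probes above. These 3 were the Pcdh7 probe and 2 probes of Pcdh10. The median of the class was 0.14, with 6 above 0 and 5 below, and it rested on single arrays and probes. Leaving out hSRY-OFF array 2 gave 0.08, and leaving out the hSRY-ON arrays 1, 2 and 3 in turn gave 0.09, 0.08 and 0.22, the last with 10 above 0 and 1 below. With 1 probe for each gene it was 0.06. Pcdh15, Pcdh18 and Pcdh24 were detected on no array.

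**Figure D2:**
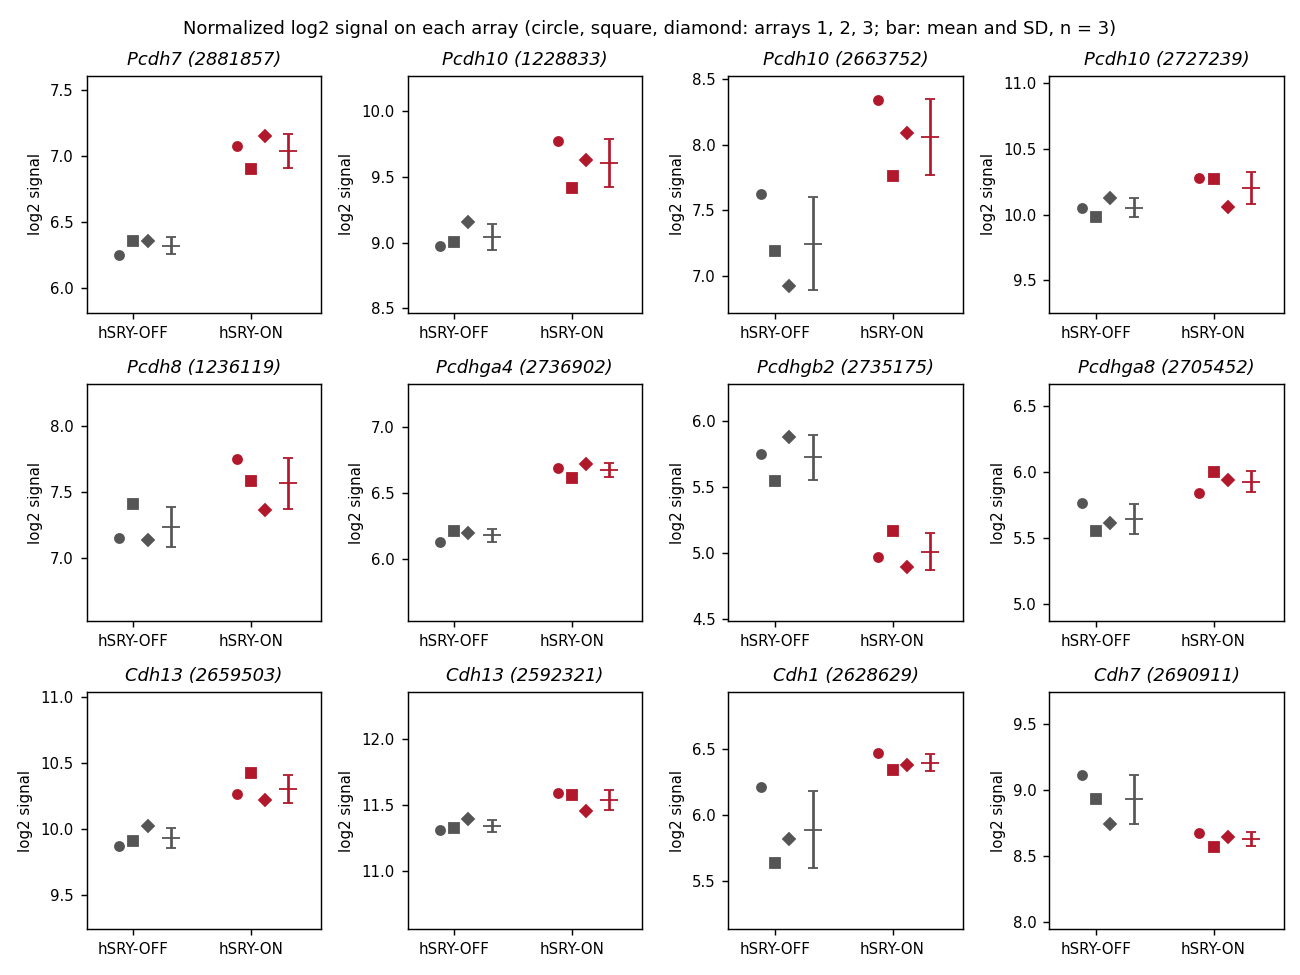
Each panel shows the normalized log2 signal of 1 probe on the 3 hSRY-OFF arrays (grey) and the 3 hSRY-ON arrays (red), with the mean and SD beside them, and all panels span 1.8 log2 units. In Pcdh7 and Pcdhga4 the groups stood well apart with little spread, in the second Pcdh10 probe they stood apart with a wide spread, and in Pcdhgb2 and Cdh7 the hSRY-ON arrays were lower.

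No cadherin probe was called among 15 tested, beside 2.17% of all probes. An unadjusted p under 0.05 by limma was found for 5 (4 higher and 1 lower in hSRY-ON), beside 20.9% of all probes. Of the 15 probes, 5 lay wholly apart between groups (33.3%), 4 above and 1 below, beside 27.7% of all probes apart, 13.5% above and 14.2% below. The median log2 fold change was 0.14, with 12 probes above 0 and 3 below, and it was 0.08 without background correction and 0.08 without the filter on dim probes (20 above 0 and 10 below). Cdh1, or E-cadherin, the type I cadherin of epithelia, read 6.21, 5.64 and 5.82 in hSRY-OFF and 6.47, 6.34 and 6.37 in hSRY-ON, a change of 0.51 (SE 0.15, adjusted p = 0.118). Its hSRY-OFF arrays were more scattered than its hSRY-ON arrays, and the groups did not overlap. The change was 0.16 without background correction and 0.27 with normexp on the signals, offset 50, and was called in neither. Cdh4, or R-cadherin, a type I cadherin of developing brain nuclei and retina, read 7.76, 7.20 and 7.18 against 7.995, 7.96 and 7.60. The first hSRY-OFF array lay among the hSRY-ON arrays, and the change of 0.47 (SE 0.19) was not called (adjusted p = 0.208). These were the 2 type I cadherins tested. Cdh2, or N-cadherin, the main type I cadherin of neural tissue, had a single probe, with deposited intensities of 171.0 to 210.7 and detection on 2 arrays, and was not tested.

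Cdh13, or T-cadherin, which is held in the membrane by a lipid anchor and lacks a cytoplasmic tail, was measured by 2 probes. One read 9.87, 9.90 and 10.02 in hSRY-OFF and 10.26, 10.42 and 10.22 in hSRY-ON, a change of 0.37 (SE 0.09, adjusted p = 0.0828). The other read 11.31, 11.33 and 11.40 against 11.59, 11.58 and 11.46, a change of 0.20 (SE 0.08, adjusted p = 0.220). The groups did not overlap in either probe. The first was called without background correction (adjusted p = 0.0103), with the stricter detection filter (0.0464) and with a trended prior (0.00770). Cdh23, the tip-link cadherin of hair cells, gave 3 dim probes with changes of 0.02, 0.32 and 0.35 and overlapping groups.

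The type II cadherins, which mark brain nuclei and projection neurons, had a median of 0.07 over 8 probes. Cdh7 was the only cadherin whose hSRY-ON arrays all lay below its hSRY-OFF arrays. It read 9.12, 8.93 and 8.74 in hSRY-OFF and 8.67, 8.57 and 8.65 in hSRY-ON, a change of -0.30 (SE 0.11, adjusted p = 0.180). Cdh22 read 7.02, 7.06 and 7.01 against 7.77, 7.18 and 7.18. All 3 hSRY-ON arrays were higher, but the first stood far above the other two, and the change of 0.35 (SE 0.16) was not called (adjusted p = 0.278). Cdh12 differed by 0.14 and Cdh6 by 0.04. The 2 probes of Cdh8 differed by -0.03 and 0.10, and those of Cdh11 by -0.13 and 0.13, so that the probes of each gene had opposite signs with overlapping groups.

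The clustered protocadherins lie in 3 neighbouring arrays on chromosome 18 (GRCm38.p6), and the array symbols covered 8 alpha, 22 beta and 19 gamma genes. Alpha and gamma transcripts join a variable first exon to constant exons shared within the cluster. The annotated ends of the 8 alpha genes fell within 1240 bases and those of the 19 gamma genes within 1384 bases, while each beta gene ends by itself. Without probe sequences it was not known whether an alpha or gamma probe reads its own variable exon or the shared exons, and such probes may report several isoforms.

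In the gamma cluster Pcdhga4 was higher in hSRY-ON, and its neighbour Pcdhgb2 was above background in hSRY-OFF alone. Pcdhga4 read 6.12, 6.21 and 6.20 in hSRY-OFF and 6.69, 6.61 and 6.72 in hSRY-ON, with a clear gap between the groups. The change was 0.50 with an interval of 0.32 to 0.68 (SE 0.08, adjusted p = 0.0340 by limma), a 1.41-fold higher signal. Pcdhgb2, whose start lies 4622 bases further on, read 5.75, 5.54 and 5.88 in hSRY-OFF and 4.97, 5.17 and 4.90 in hSRY-ON, with no overlap (fitted change -0.71, SE 0.12, adjusted p = 0.0368). Its deposited intensities were 215.9, 195.2 and 205.9 against 178.4, 176.8 and 172.0. It was detected on all 3 hSRY-OFF arrays and on no hSRY-ON array, so the hSRY-ON level is a bound and the fitted change is set against signals not above background. Against the lowest detected signal of each hSRY-ON array the hSRY-OFF mean of 5.73 was at least 1.22-fold higher.

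Both gamma calls were sensitive to single arrays. Pcdhga4 was called without hSRY-ON array 3 (adjusted p = 0.0450) but not without hSRY-OFF array 1 (0.106), 2 (0.113) or 3 (0.104) or hSRY-ON array 1 (0.0979) or 2 (0.0725). Pcdhgb2 was not tested without any 1 of the hSRY-OFF arrays, since it was then detected on 2, and was not called without hSRY-ON array 1 (0.112), 2 (0.0700) or 3 (0.0570). Without background correction the changes shrank to 0.18 (adjusted p = 0.0886) and -0.20 (0.0738), and neither was called. Nor were they without the filter on dim probes (0.0548 and 0.0573) or with a trended and robust prior (0.0817 and 0.0596). Pcdhga4 kept its sign in every fit. For Pcdhgb2 the sign in the fits with a detection filter was set by its selection.

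Of the other tested gamma genes, Pcdhga8 and Pcdhga7 were dim, while Pcdhgc3 and Pcdhgc4 had hSRY-OFF means of 8.03 and 7.23. Pcdhga8 read 5.77, 5.55 and 5.61 against 5.84, 5.999 and 5.94, a change of 0.28 without overlap (SE 0.09, adjusted p = 0.145). Pcdhga7 was detected on no hSRY-OFF array and on all 3 hSRY-ON arrays, so it too was tested only through its brighter group. It read 5.02, 5.37 and 5.31 against 5.53, 5.44 and 5.53 (adjusted p = 0.224), and the hSRY-ON mean was at least 1.03-fold higher than the bound. The C-type genes, which are expressed by most neurons rather than chosen at random, differed by 0.02 for Pcdhgc3 (SE 0.13), 0.05 for Pcdhgc4 (SE 0.15), 0.17 for Pcdhac1 (SE 0.23) and -0.06 for Pcdhac2 (SE 0.09). All 4 had overlapping groups. The 7 gamma probes had a median of 0.05. The groups did not overlap in 4 of them, but 2 of these 4, Pcdhgb2 and Pcdhga7, were tested only through their brighter group, so nothing is read from that count beside the 27.7% of all probes.

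No alpha or beta probe was called, beside 2.17% of all probes, and 1 of these 17 had an unadjusted p under 0.05, beside 20.9%. That probe was Pcdhb22, named after its values were seen, at 8.03, 7.91 and 7.96 in hSRY-OFF and 8.22, 8.10 and 8.28 in hSRY-ON, a change of 0.23 without overlap (SE 0.08, adjusted p = 0.174). The 10 beta probes had a median of 0.10, with 8 above 0 and 2 below and a range of -0.21 for Pcdhb10 to 0.37 for Pcdhb20. The 7 alpha probes had a median of 0.04 and a range of -0.21 to 0.19. Both extremes of the alpha range came from Pcdha6, whose 2 probes read 11.23 ± 0.03 and 5.57 ± 0.42 in hSRY-OFF and differed between groups in opposite directions. Pcdha10 was the alpha probe whose groups did not overlap, with a change of 0.17 (adjusted p = 0.367).

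**Figure D3:**
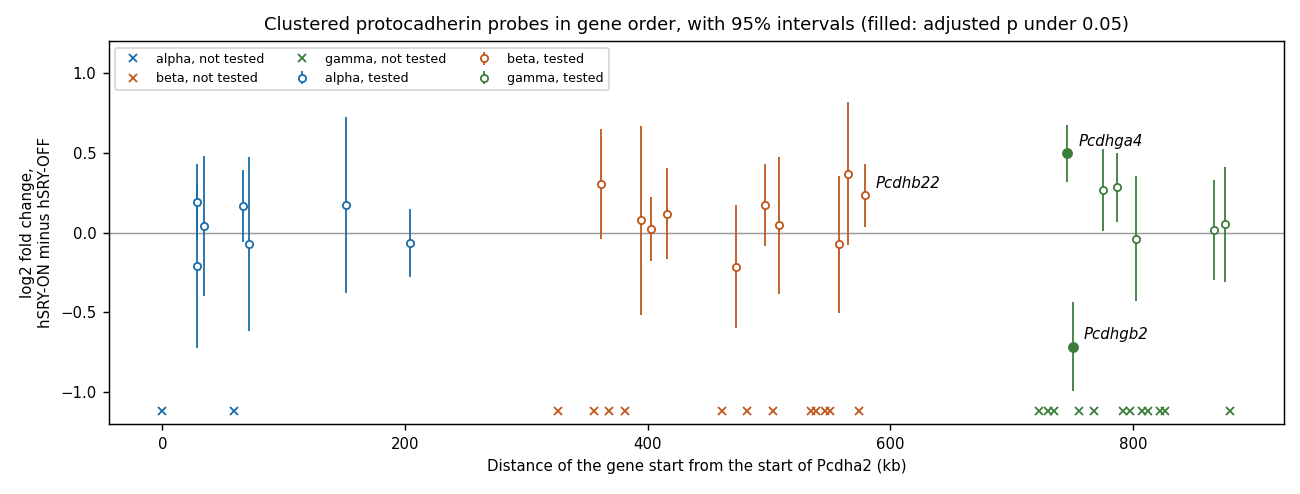
Log2 fold change (hSRY-ON minus hSRY-OFF, vertical axis) of each tested clustered probe with its 95% interval, placed by the distance of the gene start from that of Pcdha2 in kb, for the alpha, beta and gamma clusters. Filled points passed an adjusted p of 0.05 and crosses at the bottom mark genes not tested. Pcdhga4 and Pcdhgb2 stand side by side above and below 0, Pcdhgb2 with hSRY-ON signals not above background, and most other intervals include 0.

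Over all 24 tested clustered probes the median was 0.06, with 17 above 0 and 7 below, beside 51.1% of all probes above 0. Among the 22 of these probes that were detected in both groups, 4 were wholly apart (18.2%), all of them above, beside 27.4% of all probes detected in both groups. The median of the class over its probes, taken on each array, was 6.27, 6.34 and 6.30 in hSRY-OFF and 6.50, 6.56 and 6.52 in hSRY-ON. The mean over the same probes was 6.76, 6.70 and 6.75 against 6.76, 6.88 and 6.79. The array medians did not overlap, whereas the array means did. The median change was 0.14 without hSRY-OFF array 1, 0.11 without array 2 and 0.10 without array 3, and it was 0.16, 0.05 and 0.11 without hSRY-ON arrays 1, 2 and 3. All 6 of these medians were above 0. Non-clustered members together, the other protocadherins and the cadherins, had a median of 0.14 over 26 probes, with 18 above 0 and 8 below. Whether clustered and non-clustered members differed was not tested.

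**Figure D4:**
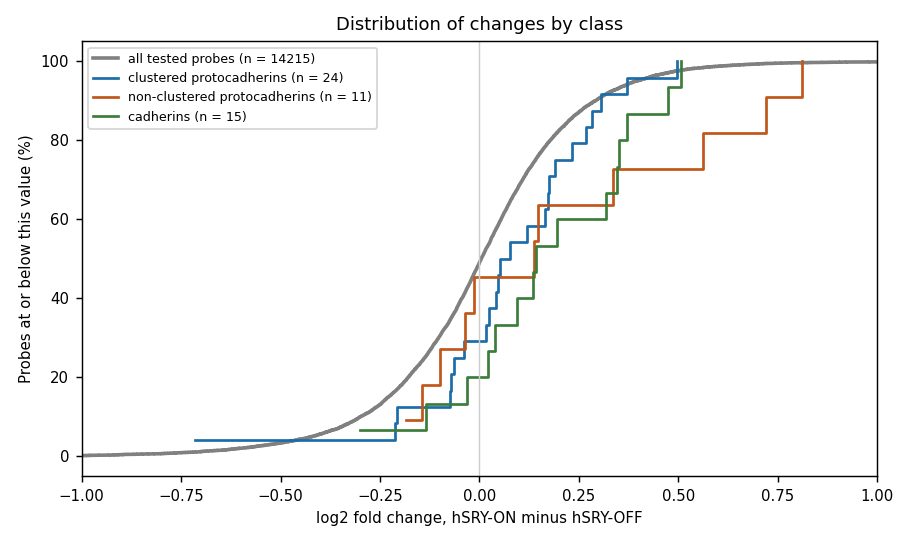
The curves give the percentage of probes (vertical axis) at or below each log2 fold change (hSRY-ON minus hSRY-OFF, horizontal axis, cut at -1 and 1) for all 14215 tested probes and for the 24 clustered protocadherin, 11 non-clustered protocadherin and 15 cadherin probes. The cadherin curve lies to the right of the grey curve through its middle, with a median of 0.14, and the non-clustered protocadherin curve leaves it mainly at its upper end, through Pcdh7 and Pcdh10.

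The 47 member probes that were not tested lay near the background. Of these, 36 were detected on no array, 4 on 1 array and 7 on 2 arrays, and their intensities ran from 140.5 to 221.4. Just inside the limit, 6 probes were detected on 3 arrays: those of Cdh23, Pcdha6, Pcdhac1, Pcdhb19, Pcdhga7 and Pcdhgb2, with means from 5.01 to 5.73. Just outside it, the 7 probes detected on 2 arrays were those of Cdh2, Cdh3, Pcdhb4, Pcdhga2, Pcdhga9, Pcdhga10 and Pcdhga12, with means from 5.09 to 5.57. The 2 sets overlapped in level. Of the 50 tested probes, 40 were detected on all 6 arrays.

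Of 7 symbols with several tested probes, 4 had the same sign in all of them, namely Cdh13, Cdh23, Pcdh1 and Pcdh10. Cdh8, Cdh11 and Pcdha6 did not.

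The partners through which cadherins and protocadherins work were read in 6 lists, with the brightest tested probe for each gene. Of 71 genes on the array 52 were tested, and limma called none of them, beside 252 of all 10548 genes read the same way. An unadjusted p under 0.05 was found for 14 (26.9%), beside 21.5% of all genes read the same way, and 28 had changes above 0 and 24 below. In the catenins and other cadherin anchors (10 tested, median 0.07), Magi1, a junctional scaffold, differed by 0.34 (adjusted p = 0.0820) and Ctnna1, alpha-catenin, by -0.22 (adjusted p = 0.162). Ctnnb1, beta-catenin, differed by 0.07 with overlapping groups. In the other members of the superfamily (6 tested, median 0.08), Clstn1, a calsyntenin of axonal transport vesicles, differed by 0.30 (adjusted p = 0.204) and the receptor Ret by -0.57 (adjusted p = 0.316). The nectins and their relatives (5 tested) had the lowest median, -0.21. Among them Pvrl2, or nectin-2, differed by -0.45 (adjusted p = 0.0940) and Pvrl1 by 0.19 (adjusted p = 0.392).

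The genes of protocadherin promoter choice and silencing (12 tested, median 0.06) included Ctcf, the insulator protein that loops chosen promoters to the enhancers, at 0.06 with overlapping groups. The largest changes in this list were 0.32 for Dnmt1 (adjusted p = 0.157) and -0.30 for Dnmt3b (adjusted p = 0.164), a maintenance and a de novo DNA methyltransferase. Among the proteases that cleave cadherins (7 tested, median -0.02), the gamma-secretase subunit Aph1a differed by 0.40 (adjusted p = 0.0780) and the sheddase Adam17 by -0.27 (adjusted p = 0.160). Among the cytoplasmic partners of protocadherins (12 tested, median -0.04), which include the WAVE complex bound by Pcdh10, Cyfip2 differed by 0.59 (adjusted p = 0.160) and Wasf2 by -0.59 (adjusted p = 0.106). None of these passed the threshold.

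Marker genes of other brain cell types moved with the groups, and their part in the adhesion gene differences was not tested. Each marker was read by its brightest tested probe. Of all genes read that way, 252 of 10548 were called and 21.5% had an unadjusted p under 0.05 by limma. The marker counts in this paragraph and the next stand beside these shares. All 4 dividing-cell markers were called lower in hSRY-ON, with a median of -0.92 and a summed level (log2 of the sum of unlogged signals) of 10.89 to 11.09 in hSRY-OFF and 9.73 to 10.36 in hSRY-ON. All 6 oligodendrocyte markers had lower values, 1 of them called (Mobp), with a median of -0.57 and summed levels of 14.48 to 14.84 against 14.07 to 14.12. Of 5 precursor markers 4 were lower and 1 was called (Gpr17), with summed levels of 13.52 to 13.59 against 13.23 to 13.29. Of 6 astrocyte markers 4 were lower and 2 were called (Gfap and Aqp4), and the summed levels overlapped, at 14.66 to 14.71 and 14.54 to 14.77. The 5 choroid plexus markers, which belong to an epithelium, were all higher, 1 of them called (Aqp1), with a median of 0.44 and summed levels of 13.86 to 14.12 against 14.16 to 14.49.

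The vascular and meningeal lists were mixed. Of 6 endothelial markers, 4 were lower and 2 higher and none was called by limma, although 4 had an unadjusted p under 0.05 (3 lower, and Flt1 higher by 0.49), and the summed levels were 12.78 to 12.87 against 12.44 to 12.61. Of 6 pericyte markers 4 were lower and 1 was called (Vtn), at 11.83 to 11.87 against 11.29 to 11.52. Of 6 meningeal markers, 4 were lower and 2 higher and none was called, with 5 at an unadjusted p under 0.05 (3 lower, and Slc6a13 and Aldh1a2 higher by 0.25 and 0.29). Their summed levels overlapped, at 12.32 to 12.37 and 11.99 to 12.33. Of 6 microglial markers 4 were higher, none was called, 1 had an unadjusted p under 0.05, and the summed levels were 11.06 to 11.22 against 11.32 to 11.43. For neurons, 3 of 4 markers were lower, none was called, none had an unadjusted p under 0.05, and the summed levels overlapped, at 15.52 to 15.65 and 15.57 to 15.62. Kdr of the endothelial list and Col1a2 of the meningeal list had no tested probe, and no other marker on the array was missing from the test except Snap25.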

How the data were processed

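Whole-brain RNA of 3 hSRY-OFF and 3 hSRY-ON mice was hybridised to Illumina MouseRef-8 v2.0 bead arrays. The authors deposited a linear, non-normalized bead intensity for each probe and array, with a detection p-value in steps of 1 in 798 negative controls. The submitters' processing notes name limma and the methods name TCC, which was not used here. In R 4.3.3 with limma 3.58.1, intensities were corrected by normexp (negative-control mean and SD inferred from the detection p-values, offset 16), quantile normalized and put on the log2 scale, which widens the spread of dim probes. Probes detected at p under 0.05 on 3 or more arrays were fitted with lmFit and eBayes (two-sided, group only), with Benjamini-Hochberg adjustment over 14215 probes. On simulated data with 200 probes changed by 1 log2 unit, 80% were recovered and 3.03% of 165 calls were false. That change was larger than any member change, and recovery of smaller changes was not simulated. Groups and replicate numbers came from the sample labels. Genes were named for being called, or for being among the 3 largest rises or falls of their class without overlap between groups. Every tested non-clustered protocadherin and cadherin was also given, as was the largest change in each direction of each pathway list. The other clustered protocadherins and genes named were chosen after their values were seen. The members and lists were chosen with earlier results of these data known. RefSeq GRCm38.p6 matched all 78 symbols, 2 under newer names. No probe or protein sequences were used here. The number of arrays limits the precision.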

Additional observations from a re-analysis of the deposited data

How the results depend on the processing

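Under 11 other settings and 6 fits leaving out 1 array, the called probes Pcdh7 and Pcdhga4 kept their direction. Pcdhgb2 did so where it was tested, but with a detection filter its direction was set by its selection. The counts of calls depended on the background correction and on single arrays, and the cause was not tested. Over all probes, 308 calls became 1317 without background correction, 860 with normexp on the signals (offset 50), 123 without the filter on dim probes, 705 with detection p under 0.01 on all arrays, 1447 with a trended and robust prior, 480 with array weights and 999 at an adjusted p under 0.10, a threshold added after seeing the data. Leaving out 1 array gave 0 to 417 (417 without hSRY-ON array 3). Among members, 3 calls became 6 with normexp on the signals, 1 without the filter, 6 at 0.10, and 0 to 2 when 1 array was left out. Clustered calls, 2, became 0 without background correction, without the filter and with the trended prior, 1 with the stricter filter, and 0 to 1 without 1 array. Non-clustered protocadherin calls, 1, became 3 without background correction, with normexp on the signals, with the trended prior and at 0.10, 2 with the stricter filter, and 0 to 1 without 1 array. Cadherin calls, 0, became 1 (Cdh13) under the same 5 settings. Calls in the pathway lists, 0, became 4 without background correction, 2 with normexp on the signals, 2 with the stricter filter, 7 with the trended prior, 3 at 0.10, and 0 to 2 without 1 array. The cadherin median, 0.14, was 0.08 without background correction and 0.08 without the filter. The clustered median, 0.06, was 0.025 without background correction and 0.17 with the stricter filter, and ran from 0.0491 to 0.156 without 1 array. Median scaling or cyclic loess moved the median of all probes to -0.01 or 0.00 and changed no call among members.

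With the replicate number as a block there were 0 calls over all probes, 0 among members and 0 in the clustered and the non-clustered protocadherins (2906 probes, 14 of them members, had an unadjusted p under 0.05), and Pcdh7 had an adjusted p of 0.0989. Same-numbered arrays deviated together only weakly (r = 0.04, 0.03 and 0.03), although each array correlated best with its own number, so the numbers were not taken to pair the mice.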
